A study of Mus musculus with 12 samples.

Results

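Transcription factors that set the lineage and the memory fate of T cells were followed through 4 kinds of tumour coculture: Tbx21, Eomes, Gata3, Foxp3, Prdm1, Bcl6, Tcf7, Lef1, Id2 and Id3. Their probe sets were taken from the platform annotation, where 9 of these 10 genes had 14 of the 45037 probe sets of the table. Tcf7 had no probe set there that named it alone, so it has no value here. Of the 14 probe sets, 12, of 8 genes, exceeded the array median on 3 or more of the 12 arrays and entered the tests, among 24366 tested in all. No member passed in any of the 6 pairwise comparisons of groups or in their interaction at a limma adjusted p of 0.05, and 0% of all probe sets did. The members with the smallest unadjusted p over the 4 groups were Prdm1, which was high on 4 of the 6 arrays with 1 factor alone, and Id2, whose mean was lower with SEMA6A alone than in the control on all 3 of its probe sets. For Id2 1422537_a_at this log2 difference was -0.58, or -0.24 without SEMA6A replicate 2, an array that stood apart in a measure of RNA breakdown. Id2 1435176_a_at was also lower with SEMA3A alone, by -0.27.

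Splenocytes of DBA/2 mice, 10 weeks old, had been cultured for 9 days with KLN-205 cells, a mouse squamous cell carcinoma line, and interleukin-2 at 100 units/mL given every 3 days. In all groups, the control included, the tumour cells had SEMA3A, a semaphorin that cells secrete, knocked down. The group with both factors had tumour cells that also overexpressed SEMA6A, a membrane-bound semaphorin, together with purified SEMA3A protein at 10 µg/mL. The SEMA6A group had the overexpressing tumour cells alone, the SEMA3A group had the purified protein alone, and the control group had neither. Each group had 3 Affymetrix arrays, hybridised with material made from 6 µg of total RNA. Whether the 3 arrays of each group stand for separate cultures or mice is not in the labels, and p-values measure only the spread between these samples. These are mixed cultures, in which fewer cells of a type and less RNA per cell cannot be told apart.

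After a T cell has met its antigen, these factors act in opposed sets. T-bet (Tbx21), Blimp-1 (Prdm1) and Id2 favour short-lived effector cells, and Eomes is shared by effector and memory cells, while TCF-1 (Tcf7), LEF-1 (Lef1), Id3 and Bcl-6 favour memory precursors. GATA-3 and Foxp3 are best known as the master factors of type 2 helper cells and of regulatory T cells. Blimp-1 and Bcl-6 repress each other's genes, and Id2 and Id3 bind no DNA themselves but hold E proteins away from E-boxes, the sites written CANNTG.

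Prdm1 and Id2 had the smallest p among the members in an F test over the 4 groups, and their promoters are shown with the E-boxes in capitals, since Id2 acts on the proteins that bind such sites. The sequences are the 250 bases before the start of each gene, 5′ to 3′ in the direction of transcription, from RefSeq for build GRCm38.p6. That of Prdm1 lies on the minus strand at chr10:44458749-44458998 and that of Id2 on the minus strand at chr12:25096093-25096342.
Prdm1: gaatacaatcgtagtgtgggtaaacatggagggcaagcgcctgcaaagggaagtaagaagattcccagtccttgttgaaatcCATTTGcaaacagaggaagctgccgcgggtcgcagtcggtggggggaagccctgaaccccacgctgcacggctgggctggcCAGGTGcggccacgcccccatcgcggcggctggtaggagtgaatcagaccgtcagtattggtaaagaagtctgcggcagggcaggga
Id2: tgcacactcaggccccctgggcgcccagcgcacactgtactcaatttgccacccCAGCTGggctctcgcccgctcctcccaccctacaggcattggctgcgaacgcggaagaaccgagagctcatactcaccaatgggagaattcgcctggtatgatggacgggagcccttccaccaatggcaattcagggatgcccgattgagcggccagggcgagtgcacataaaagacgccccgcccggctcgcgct
The Prdm1 promoter held 2 E-boxes, CATTTG and CAGGTG, and the Id2 promoter held 1, CAGCTG, which ended 190 bases before the start. CANNTG was searched as written, and its reversed complement has the same form. It is found in 66.2% of 32851 mouse promoters of this length, so its presence does not set these promoters apart. On either strand the letters GCGTG, part of sites bound by the aryl hydrocarbon receptor and by hypoxia-inducible factors, occurred at 2 places in the Prdm1 promoter and in 28.2% of all promoters, and were not in this window of Id2. ACGTG, the other form of the hypoxia-inducible factor core, was in neither window and in 16.6% of all. GC content was 59.2% for Prdm1 and 62.8% for Id2, against a median of 52.4% over all promoters.

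Values are MAS5 signals, a brightness per probe set on a linear scale. Array medians were 42.7 to 53.7, and levels are compared only within a probe set, since brightness per RNA molecule differs between probe sets. Replicate arrays correlated at 0.965 to 0.989 over the tested probe sets. RNA of T cells was plain in all groups: 11 of 12 T cell marker genes passed the filter, and their summed signal was 77998 to 81279 with both factors, 72089 to 80019 with SEMA6A, 78251 to 82663 with SEMA3A and 72517 to 82274 in the control. Cd4, the helper cell coreceptor, stayed at or under 13.0 on every array, below the filter. Of the B cell genes that a spleen should contain, Ms4a1, Cd79a, Pax5 and Ebf1 did not pass it, their highest signals being 43.9, 43.0, 40.1 and 27.7. Cd79b and Blk did pass, at 56.9 to 106 and 13.9 to 75.4. Of the whole list of B cell and plasma cell genes, 4 of 11 named on the array passed. SEMA6A replicate 2 stood apart in its 3′/5′ signal ratio for Gapdh, a measure of RNA breakdown, at 1.22 against 0.767 to 0.818 on the other arrays. Where a printed log2 difference of a member moved by over 1.5 times without this array, that value is also given.

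**Figure D1:**
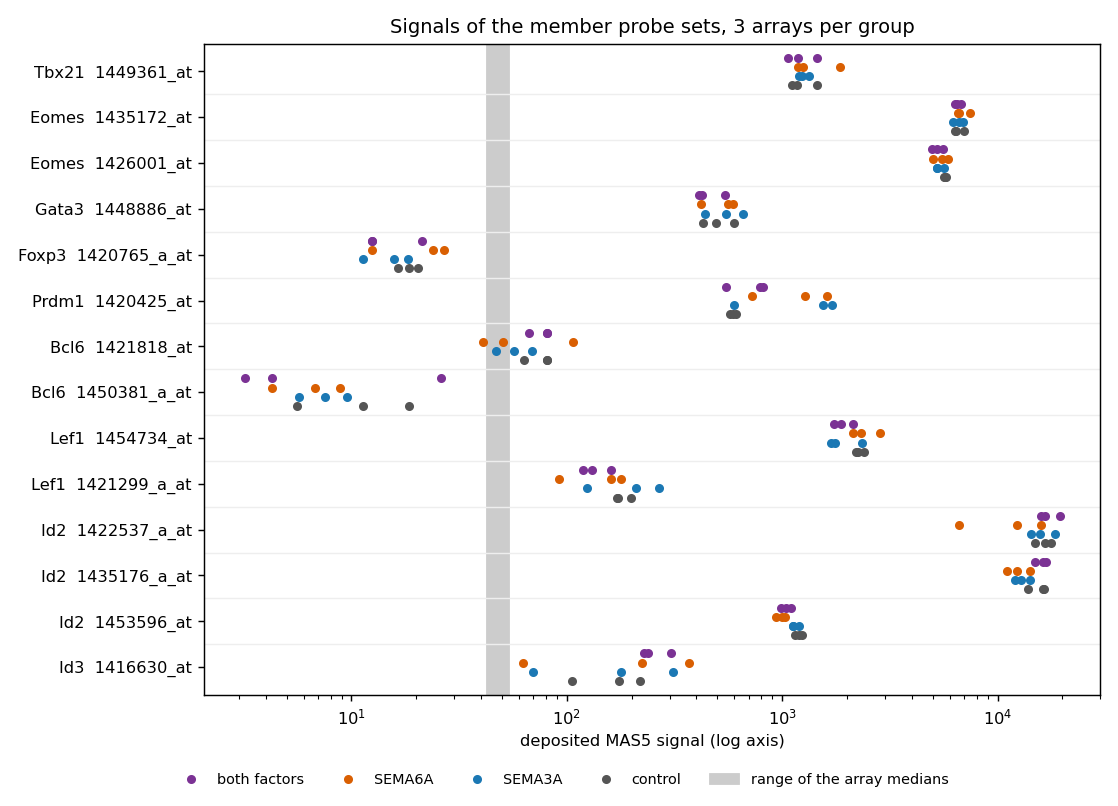
Deposited MAS5 signal (log axis) of the 14 member probe sets on the 12 arrays, 3 per group, 1 point per array. The grey band is the range of the array medians, 42.7 to 53.7. Foxp3 and Bcl6 1450381_a_at lie left of the band, Bcl6 1421818_at on or near it, and the other 11 probe sets right of it.

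The effector factor genes Tbx21 and Eomes reached no unadjusted p under 0.05 in any comparison. Tbx21 had 1066, 1444 and 1184 with both factors, 1179, 1850 and 1249 with SEMA6A, 1327, 1202 and 1236 with SEMA3A, and 1457, 1112 and 1177 in the control. The groups overlapped, and the highest value was that of SEMA6A replicate 2. Over the 6 pairwise comparisons of groups its log2 difference lay between -0.17 and 0.17, each with a 95% interval of 0.364 to either side. Both ends were contrasts with the SEMA6A group, and without SEMA6A replicate 2 they turned sign, with SEMA6A against control at -0.03 and both factors against SEMA6A at 0.03. Eomes had 2 probe sets. On 1435172_at the means were 6530 ± 235 with both factors, 6887 ± 522 with SEMA6A, 6575 ± 337 with SEMA3A and 6594 ± 353 in the control (SD, n = 3 each). Its differences were between -0.08 and 0.07, with an interval of 0.169 to either side, one of the narrowest among the members, and between -0.02 and 0.0025 without SEMA6A replicate 2. On the other probe set, 1426001_at, the signals were 5608, 4982 and 5254 with both factors, 5545, 5912 and 4990.5 with SEMA6A, 5259, 5246 and 5644 with SEMA3A, and 5697, 5647 and 5739 in the control. The control arrays lay above all those with both factors or with SEMA3A, where 17% and 16.6% of all probe sets did not overlap. The log2 differences were only -0.12 to 0.02, or -0.12 to -0.0018 without SEMA6A replicate 2.

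Prdm1 was the member with the largest differences between groups. Its product, Blimp-1, drives terminal effector differentiation in CD8 T cells and antibody secretion in plasma cells. Prdm1 had signals of 788, 548.5 and 815 with both factors, 724, 1272 and 1616 with SEMA6A, 1699, 1541 and 595.5 with SEMA3A, and 591, 613 and 572 in the control. The 4 highest arrays were SEMA6A replicates 2 and 3 and SEMA3A replicates 1 and 2, while SEMA6A replicate 1 lay within the range of the group with both factors and SEMA3A replicate 3 within that of the control. The group means were 717 ± 147 with both factors, 1204 ± 450.1 with SEMA6A, 1278 ± 597 with SEMA3A and 592 ± 20.7 in the control (SD, n = 3 each). In order of level these were SEMA3A, SEMA6A, both factors and control, and no neighbours in this order differed at an unadjusted p under 0.05. Both groups with a single factor spread more than the control.

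Against the control, Prdm1 had a log2 difference of 0.94 ± 0.34 with SEMA6A (SE; limma adjusted p = 0.524). The 2 groups did not overlap, which held for 11.8% of all probe sets. With SEMA3A the difference was 0.97 ± 0.34 (SE; limma adjusted p = 0.593), and SEMA3A replicate 3 lay among the control arrays. With both factors it was 0.27 ± 0.34 (SE). Where both factors were set against one, the differences were -0.70 ± 0.34 against SEMA3A and -0.67 ± 0.34 against SEMA6A (SE). Single arrays set the size of several of these. Leaving out 1 array at a time, SEMA6A against control ranged from 0.69 to 1.25 and SEMA3A against control from 0.70 to 1.44. SEMA6A against control was not at an unadjusted p under 0.05 without SEMA6A replicate 3. Nor was SEMA3A against control without SEMA3A replicate 1 or without SEMA3A replicate 2. Both factors against SEMA3A came to -0.43 when SEMA3A replicate 1 was left out and -1.16 when SEMA3A replicate 3 was. Both factors against SEMA6A came to -0.42 when SEMA6A replicate 3 was left out. Both factors against control came to 0.45 when replicate 2 of the group with both factors was left out and 0.17 when its replicate 3 was. None of these passed after adjustment. The interaction, which is the SEMA6A difference in the presence of SEMA3A minus that in its absence, was -1.64 ± 0.49 (SE; unadjusted p = 0.0049, limma adjusted p = 0.24). It passed the threshold when 1 of 2 arrays was left out. Without SEMA6A replicate 1 it was -1.95 (limma adjusted p = 0.0318), and without SEMA3A replicate 3 it was -2.10 (adjusted p = 0.0449). These arrays had the lowest Prdm1 signal of their groups, so leaving either out made the interaction larger in size. Of all probe sets, 12.6% and 12.7% lay above and below 0 at an unadjusted p under 0.05 without SEMA6A replicate 1. Without SEMA3A replicate 3, 9.84% and 9.97% did, against 7.33% and 8.05% with all arrays. Without SEMA6A replicate 2, whose Gapdh ratio stood apart, the Prdm1 interaction was -1.57 (limma adjusted p = 0.281).

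Id2 was measured by 3 probe sets, whose patterns were not the same. Id2 is abundant in effector CD8 T cells and natural killer cells, where it supports their survival. On 1422537_a_at the signals were 16602, 19445 and 15891 with both factors, 15869, 6614 and 12318 with SEMA6A, 15805, 14285 and 18510 with SEMA3A, and 16546, 14886 and 17695 in the control. The low value was that of SEMA6A replicate 2, and SEMA6A replicate 3 was the next lowest. The SEMA6A group differed from the control by -0.58 ± 0.22 (SE; limma adjusted p = 0.524), or by -0.24 without SEMA6A replicate 2. Both factors differed from SEMA6A by 0.64 ± 0.22 (SE; limma adjusted p = 0.455), or by 0.29 without that array. SEMA6A differed from SEMA3A by -0.53 ± 0.22 (SE; adjusted p = 0.921), or by -0.18 without it. The interaction was 0.69 ± 0.31 (SE; limma adjusted p = 0.317). It was 0.34 without SEMA6A replicate 2 (adjusted p = 0.357) and 0.95 without SEMA6A replicate 1 (adjusted p = 0.049), which passed the threshold. Without SEMA6A replicate 1, 12.6% of all probe sets were above 0 at an unadjusted p under 0.05, against 7.33% with all arrays.

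On 1435176_a_at the signals were 16178, 16868 and 14931 with both factors, 14167, 11093 and 12272 with SEMA6A, 12922, 12116 and 14176 with SEMA3A, and 16186, 16485 and 13884 in the control. All 3 arrays with both factors were above all 6 with 1 factor, and 2 of the 3 control arrays were too. Its differences from the control were -0.32 ± 0.10 with SEMA6A (SE; limma adjusted p = 0.524) and -0.27 ± 0.10 with SEMA3A (adjusted p = 0.593). With both factors it was at 0.02 ± 0.10. Both factors differed from SEMA3A by 0.30 ± 0.10 (SE; limma adjusted p = 0.364) and from SEMA6A by 0.35 ± 0.10 (adjusted p = 0.455), without overlap in either case. In these comparisons 20% and 13.5% of all probe sets did not overlap. The interaction was 0.62 ± 0.14 (SE; unadjusted p = 0.000834, limma adjusted p = 0.24), the smallest unadjusted p among the members. It was 0.71 without SEMA6A replicate 1 (adjusted p = 0.023), past the threshold, and 0.54 without SEMA6A replicate 2 (adjusted p = 0.259). Of all probe sets, 12.6% were above 0 at an unadjusted p under 0.05 without SEMA6A replicate 1.

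The third probe set of Id2, 1453596_at, had 1099, 1041 and 988 with both factors, 1002, 940 and 1028 with SEMA6A, 1197, 1125 and 1127 with SEMA3A, and 1196, 1143 and 1233 in the control. Here the 2 groups with SEMA6A lay below the 2 without it on every array. This differs from 1435176_a_at, where the group with both factors was at the level of the control. Its difference of SEMA6A from the control was -0.26 ± 0.09 (SE; limma adjusted p = 0.524), that of SEMA6A from SEMA3A -0.21 ± 0.09 (adjusted p = 0.921) and that of both factors from the control -0.17 ± 0.09 (adjusted p = 0.906). Its interaction was 0.14 ± 0.13 (SE; adjusted p = 0.638). All 3 probe sets thus had lower mean signals with SEMA6A than in the control, and only 2 of the 3 had an interaction at an unadjusted p under 0.05.

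**Figure D2:**
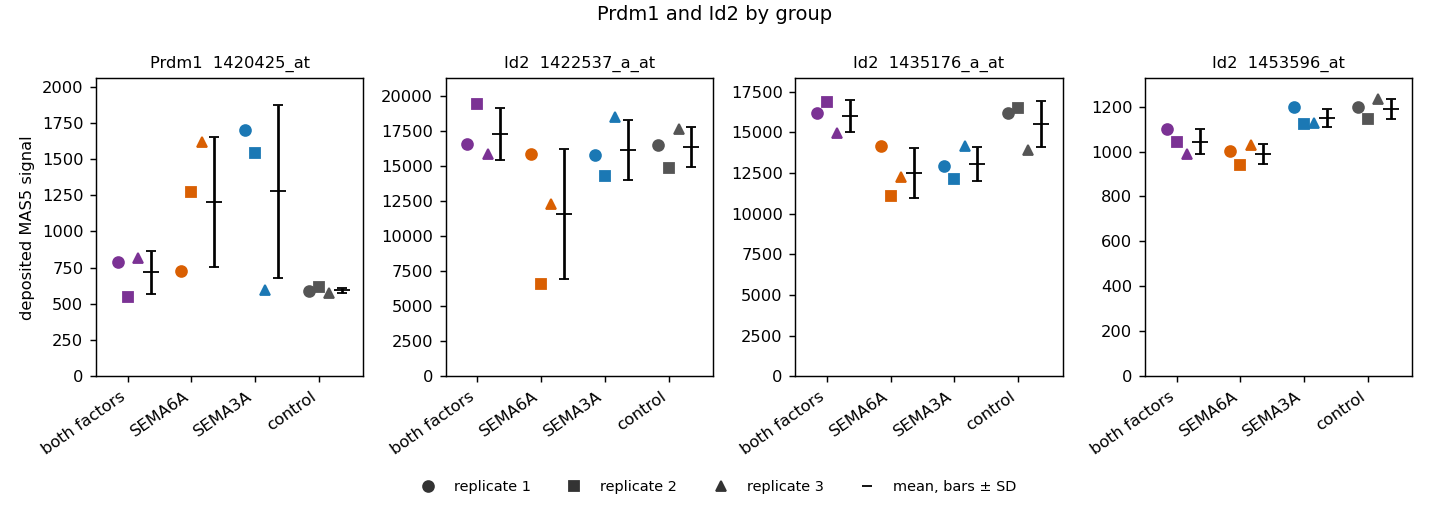
Deposited MAS5 signal (linear axis from 0) of Prdm1 and of the 3 probe sets of Id2 in each group. Symbols are replicates 1 to 3, and the bar is the mean ± SD. For Prdm1, 2 of the 3 arrays in each single-factor group stand above all arrays of the group with both factors and of the control. For Id2 1422537_a_at, SEMA6A replicate 2 stands alone at 6614.

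Among the memory factor genes, only Lef1 reached an unadjusted p under 0.05 in a comparison of all 12 arrays, and it did not in any pairwise comparison without SEMA6A replicate 2. Lef1 encodes LEF-1, which with TCF-1 keeps T cells in a naive or memory state. On 1454734_at its signals were 1881, 2131 and 1749 with both factors, 2129, 2847 and 2311 with SEMA6A, 2357, 1694 and 1752 with SEMA3A, and 2408, 2245 and 2200.4 in the control. The arrays with both factors all lay below the control arrays, and SEMA6A replicate 2 was the highest of all. The difference of both factors from SEMA6A was -0.32 ± 0.14 (SE; limma adjusted p = 0.456), or -0.20 without SEMA6A replicate 2, and that of SEMA6A from SEMA3A was 0.33 ± 0.14 (SE; limma adjusted p = 0.921), or 0.21 without it. The other probe set of Lef1, 1421299_a_at, disagreed. It had 160.1, 118 and 131 with both factors, 178, 92.0 and 160.4 with SEMA6A, 268, 209 and 124 with SEMA3A, and 199, 171 and 172 in the control. SEMA6A replicate 2 was here the lowest array of all, and SEMA6A against SEMA3A was at -0.43 ± 0.25 (SE), the opposite sign. That value was -0.16 without SEMA6A replicate 2, -0.22 without SEMA3A replicate 1 and -0.68 without SEMA3A replicate 3. Both probe sets were lower with both factors than in the control without overlap, at log2 differences of -0.24 ± 0.14 and -0.38 ± 0.25 (SE; limma adjusted p = 0.915 and 0.937). In this comparison 17% of all probe sets did not overlap.

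Id3, the relative of Id2 found in naive and memory precursor cells, varied more between arrays than between groups. Its signals were 237, 228 and 304 with both factors, 224, 62.6 and 368 with SEMA6A, 69.4, 310.0 and 178 with SEMA3A, and 175, 220 and 106 in the control. The lowest and the highest array were both of the SEMA6A group. Its log2 differences between pairs of groups were from -0.03 to 0.64 (-0.16 to 0.80 without SEMA6A replicate 2), with a 95% interval of 1.13 to either side, the widest among the members, so that a 2-fold change could not have been told from none. Bcl6, which opposes Blimp-1, was near the array median on 1421818_at: 66.7, 81.3 and 80.8 with both factors, 40.9, 107 and 50.3 with SEMA6A, 47.0, 56.8 and 69.0 with SEMA3A, and 81.1, 63.2 and 80.8 in the control. Its groups overlapped, and SEMA6A replicate 2 was again at an extreme, here the highest. SEMA6A against control was at -0.28 with all arrays and at -0.60 without that array (unadjusted p = 0.0222, limma adjusted p = 0.899), and at -0.09 and -0.15 without SEMA6A replicates 1 and 3. Its other probe set, 1450381_a_at, had signals of 3.21 to 26.1 and was above the array median on 0 of 12 arrays. Whether Bcl6 changed cannot be told from these signals.

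Gata3, the factor of type 2 helper cells, gave no contrast past the threshold, and Foxp3, that of regulatory cells, was too dim to be tested. Gata3 had 423, 542 and 411 with both factors, 419, 559 and 589 with SEMA6A, 659.9, 550.1 and 438 with SEMA3A, and 595, 431 and 491 in the control. All groups overlapped, and its log2 differences between pairs of groups were from -0.23 to 0.12. Foxp3 had 21.2, 12.4 and 12.5 with both factors, 27.0, 23.8 and 12.4 with SEMA6A, 15.8, 18.3 and 11.3 with SEMA3A, and 20.5, 16.5 and 18.6 in the control. It was above the array median on 0 of 12 arrays and was not tested. The type 2 cytokine genes Il4, Il5 and Il13 stayed below the filter at up to 24.8, 23.8 and 24.9, and 10 of 11 genes of the regulatory T cell list passed it, though activated T cells express most of them too.

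Counted over the 12 tested member probe sets, 0 passed in any comparison at a limma adjusted p of 0.05. Of all 24366 probe sets 0% passed in each comparison. At an unadjusted p under 0.05, SEMA6A against control gave 4 member probe sets, where 9.39% of all probe sets reached it. Of these, 1 was higher (Prdm1), where 4.91% of all were, and 3 were lower (all of Id2), where 4.48% were. SEMA3A against control gave 2 (8.13% of all), 1 higher (3.84%) and 1 lower (4.29%). Both factors against control gave 0 (5.98% of all), 0 higher (2.89%) and 0 lower (3.09%). Both factors against SEMA3A gave 1 (11.2% of all), 1 higher (5.94%) and 0 lower (5.27%). Both factors against SEMA6A gave 3 (10.7% of all), 2 higher (4.97%) and 1 lower (5.74%). SEMA6A against SEMA3A gave 3 (4.58% of all), 1 higher (2.24%) and 2 lower (2.34%). The interaction gave 3 (15.4% of all), 2 above 0 (7.33%) and 1 below (8.05%), and an F test over the 4 groups gave 3, where 9% of all probe sets reached it. As 1 gene, Id2, supplies up to 3 of these, they are not independent. Without SEMA6A replicate 2, SEMA6A against control gave 1 higher (Prdm1) and 3 lower (Bcl6 and 2 of Id2), where 2.48% and 2.59% of all were, both factors against SEMA6A gave 3 higher and 0 lower (3.7% and 3.8%), and SEMA6A against SEMA3A gave 0 either way (2.04% and 2.37%). The comparisons share groups, so their counts are not independent of each other.

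The median log2 difference of the 12 member probe sets was 0.00 with SEMA6A, -0.04 with SEMA3A and -0.03 with both factors, each against control, beside medians of 0.00, -0.01 and 0.00 over all probe sets. Member probe sets whose groups did not overlap numbered 5 for both factors against control, where 17% of all probe sets had this. These were Eomes 1426001_at, both of Lef1, Id2 1453596_at and Id3, of which only Id3 was higher with both factors. SEMA6A against control had 2 (11.8% of all), SEMA3A against control 1 (16.6%), both factors against SEMA3A 2 (20%), both factors against SEMA6A 2 (13.5%) and SEMA6A against SEMA3A 1 (7.9%).

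**Figure D3:**
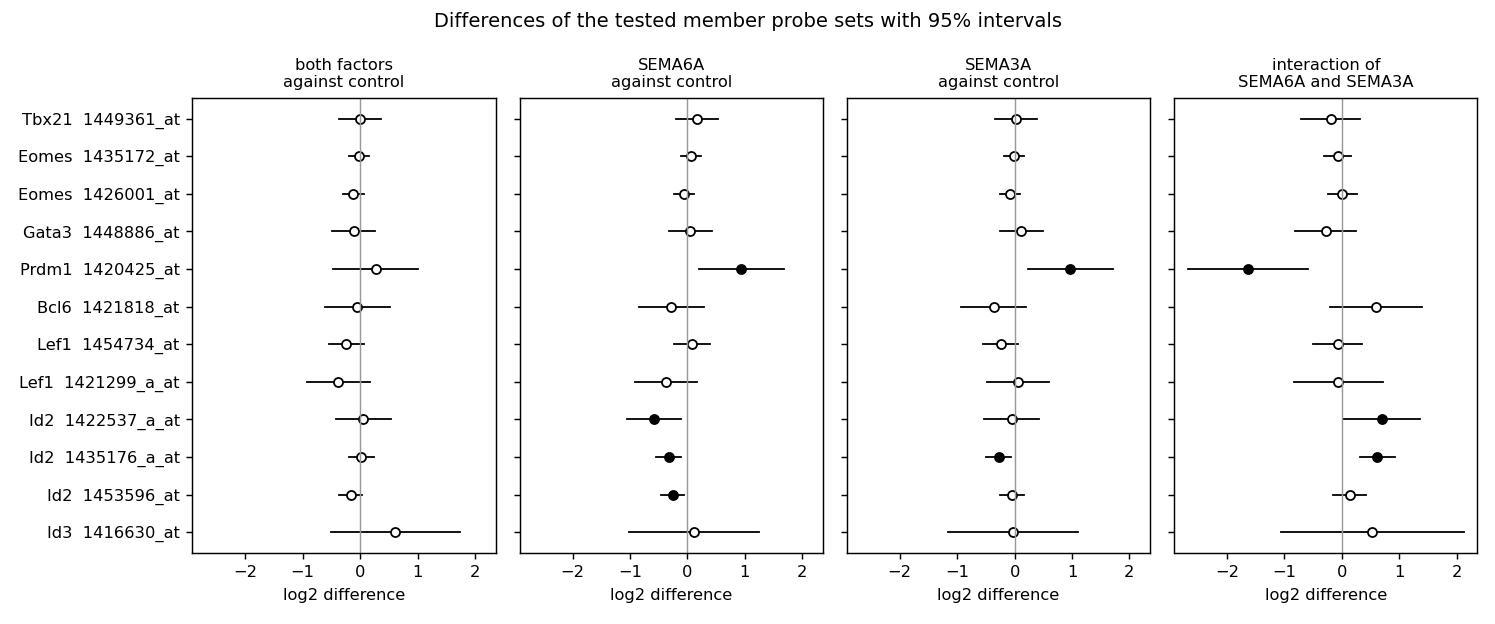
Log2 differences of the 12 tested member probe sets against control and for the interaction, with 95% intervals from limma. Filled points have an unadjusted p under 0.05, and none passed after adjustment. Prdm1 lies right of 0 with either factor alone, at 0.94 and 0.97, and at 0.27 with both, and its interaction is -1.64.

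Other factors of T cell fate were taken as a list of 52 genes, of which 46 of 47 named on the array were tested with 1 probe set each. None passed after adjustment. At an unadjusted p under 0.05, 3 were higher and 3 lower with SEMA6A, where 6.3% and 3.74% of all genes were, 1 was higher and 4 lower with SEMA3A (4.77% and 3.75%), and 0 were higher and 1 lower with both factors (2.55% and 1.47%), each against control. Both factors against SEMA3A had 3 higher and 3 lower (5.73% and 5.25%), both factors against SEMA6A 2 higher and 4 lower (5.03% and 6.18%), and SEMA6A against SEMA3A 1 higher and 0 lower (2.03% and 1.99%). For the interaction 5 were above 0 and 5 below, where 7.72% and 10% of all genes were, and the median was -0.12 beside 0.00 over all genes. The 4 with the smallest p in the F test were Klf2, Runx1, Batf3 and Zbtb7a. Klf2, a quiescence factor that drives homing receptors, had 152, 117 and 111 with both factors, 191, 227 and 227 with SEMA6A, 213, 304 and 160.1 with SEMA3A, and 145, 163 and 123 in the control. Its arrays with both factors did not overlap with those of SEMA6A or SEMA3A alone, where 13.5% and 20% of all probe sets did not. The interaction of Klf2 was -1.22 ± 0.27 (SE; limma adjusted p = 0.24), the same sign as that of Prdm1. Batf3, a factor that supports memory CD8 T cells, had 263, 254 and 233 with both factors, 243, 90.8 and 116 with SEMA6A, 122, 133 and 172 with SEMA3A, and 201, 323 and 246 in the control, and its interaction was 1.61 ± 0.41 (SE; limma adjusted p = 0.24). Runx1 was dim, at 5.87 to 92.7, and Zbtb7a had an interaction of 0.70 ± 0.21 (SE; limma adjusted p = 0.24). Without SEMA6A replicate 1 the interaction passed the threshold for Klf2 (-1.27, adjusted p = 0.0308) and Batf3 (2.01, adjusted p = 0.0222), and without SEMA3A replicate 3 for Klf2 (-1.39, adjusted p = 0.0464). Of all probe sets, 12.6% and 12.7% were above and below 0 at an unadjusted p under 0.05 without SEMA6A replicate 1. Without SEMA3A replicate 3, 9.84% and 9.97% were.

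Surface genes of memory and activation also differed between the arrays of a group. Cd44, the adhesion receptor of antigen-experienced T cells, had 3774, 4204 and 3502 with both factors, 3586, 1312 and 2279 with SEMA6A, 1793, 1803 and 3979 with SEMA3A, and 4001, 3914 and 4228 in the control. Its 4 lowest arrays were the 4 on which Prdm1 was highest. Ccr7, the lymph node homing receptor, had 251, 253.5 and 268 with both factors, 283, 57.3 and 119 with SEMA6A, 89.5, 179 and 214 with SEMA3A, and 298, 291 and 335 in the control, with its 4 lowest values on the same 4 arrays. In the list of naive and memory genes that they lead, 0 of 12 were higher and 2 lower at an unadjusted p under 0.05 with SEMA6A (6.3% and 3.74% of all genes), and likewise with SEMA3A (4.77% and 3.75%), each against control, and 0 of 12 passed after adjustment. Bcl2 and Il2rb, next in this list by the F test p, did not share the pattern of Cd44 and Ccr7. On SEMA6A replicates 2 and 3 and SEMA3A replicates 1 and 2, Bcl2 had 10513, 8999.5, 10976 and 10778, against 8220 to 10368 in the control. Il2rb had 10296, 11332, 12092 and 11441 there, against 10098 to 10661 in the control. In the effector list, led in order of the F test p by Ifng, Gzmf, Gzmk and Gzma, 2 of 18 were higher and 3 lower with SEMA6A (6.3% and 3.74% of all genes). With SEMA3A 3 of 18 were higher and 1 lower (4.77% and 3.75%), and with both factors 0 of 18 were either (2.55% and 1.47%). Of 9 genes of the type 1 helper list, led by Ifng and the interleukin-18 receptor gene Il18rap, 1 was higher and 1 lower with SEMA6A, and likewise with SEMA3A. Of 10 in the regulatory list, led by Tnfrsf18, Il2ra and Ctla4, 2 were higher (Il2ra and Ctla4) and 0 lower, and of 7 in the follicular helper list, led by Pdcd1, 2 were higher (Pdcd1 and Icos) and 0 lower, with SEMA6A against control, where 6.3% and 3.74% of all genes were. With SEMA3A 1 gene of the regulatory list (Ctla4) was higher and 0 lower, and 0 of the follicular helper list were either, and with both factors 0 of any of these 3 lists were either.

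Measures that are not of T cell fate also differed between these arrays. The 3′/5′ ratio of the transferrin receptor control was 12.2, 5.93 and 11.2 with both factors, 8.39, 35.7 and 23.3 with SEMA6A, 17.2, 17.6 and 18.1 with SEMA3A, and 6.82, 8.41 and 9.34 in the control. The pyruvate carboxylase ratio was 15.5 and 10.3 on SEMA6A replicates 2 and 3. On SEMA3A replicates 1 and 2 it was 6.66 and 6.90, below the control at 7.01 to 8.26. The Actb ratio was 1.23 on SEMA6A replicate 2, the highest of the 12 arrays. On SEMA6A replicate 3 and SEMA3A replicates 1 and 2 it was within the range of the control, 0.993 to 1.07. The transferrin receptor ratio was high on the 4 arrays where Prdm1 was highest and also on SEMA3A replicate 3, where Prdm1 was not. Krt19, a keratin of epithelial cells such as the tumour line, had 44.3, 75.8 and 56.3 with both factors, 76.8, 209 and 186 with SEMA6A, 163, 239 and 25.1 with SEMA3A, and 52.6, 27.3 and 20.0 in the control, so that its 4 highest values were on the same 4 arrays. Of 17 squamous tumour genes named on the array 10 passed the filter, and Krt14, Krt16, Krt17 and Trp63 did not. Krt19 had the smallest F test p in that list, and its pattern was not that of the whole list: 7 of the 10 were above 0 and 3 below with SEMA6A against control, and Perp had 186 and 189.6 on SEMA6A replicates 2 and 3 and 187 and 134 on SEMA3A replicates 1 and 2, within or below its range of 184 to 264 in the control. At an unadjusted p under 0.05, 3 of 10 were higher and 0 lower with SEMA6A (6.3% and 3.74% of all genes), 1 higher and 0 lower with SEMA3A (4.77% and 3.75%), and 0 either way with both factors (2.55% and 1.47%), each against control. The summed signal of the list was 2901 to 3237 with both factors, 2773 to 4074 with SEMA6A, 2638 to 3385 with SEMA3A and 2739 to 3268 in the control. The plasma cell genes Jchain and Tnfrsf17, in whose cells Prdm1 is also high, stayed below the filter, at up to 35.6 and 29.7. Sdc1 and Xbp1 of the same list passed it, at 58.6 to 130 and 9966 to 14775. In the marker list of natural killer cells, which also express Tbx21, Eomes, Prdm1 and Id2, 10 of 12 genes were above the filter. Its summed signal was 37665 to 39715 with both factors and 32669 to 40250.0 with SEMA6A. It was 39968 to 40533 with SEMA3A and 34814 to 38083 in the control. Klra1 and Itga2 did not pass, and Klra8 and Ncr1 were dim, with medians of 29.0 and 91.5 over the arrays. The brightest were Fcer1g and Klrd1, with medians of 14511 and 9412, and the sum mostly follows such bright genes. Whether natural killer cells were present cannot be told from this list. Macrophage genes had 6 of 11 above the filter, without Adgre1, Lyz2 and Itgam, and a summed signal of 3930.2 to 4500.2 with both factors, 4231 to 7228 with SEMA6A, 4724 to 6814 with SEMA3A and 4374.5 to 5739 in the control. Most of this sum was the 1 gene Ccr2, at 3177 to 6265 over the arrays. The other genes above the filter had medians of 40.5 to 251.5, so the sum does not measure macrophage RNA as such. The part of RNA quality, of tumour RNA and of these cells in the values of Prdm1 and Id2 was not tested.

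The genes whose log2 signals were most like those of each member over the 12 arrays are given as a description, since the points share their arrays and any difference in RNA quality. For Prdm1 these were Ssbp3, Pdxdc1 and Myl4 (Pearson r = 0.977, 0.958 and 0.958), and for Id2 1422537_a_at Ost4, AI413582 and Erg28 (r = 0.972, 0.970 and 0.967). Ssbp3 had 1115, 1019 and 1162 with both factors, 1064, 1284 and 1408 with SEMA6A, 1508, 1461 and 1024 with SEMA3A, and 935, 1015 and 996 in the control, with the same 4 arrays highest. Ost4 had 6289.8 on SEMA6A replicate 2 and 8344 to 9827 on the other arrays, so that both were lowest on the same array. The nearest genes were Stk4, Iffo1 and Slc25a20 for Tbx21 (r = 0.931, 0.930 and 0.925), Plekho2, Sufu and Elob for Eomes (0.946, 0.934 and 0.919), and Cd93, Wscd2 and Epcam for Gata3 (0.926, 0.922 and 0.919). They were Kcnq5, Lrrc75a and Ankhd1 for Lef1 (0.881, 0.877 and 0.870), Sh3bp5, Ctss and Gcnt2 for Id3 (0.942, 0.936 and 0.928), and Csnk1d, Fbxo34 and Enox2 for Bcl6 (0.911, 0.881 and 0.866). Over all 11325 genes the best match had a median r of 0.921, with 5th and 95th percentiles of 0.840 and 0.979, so none of the members had a match outside that range.

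**Figure D4:**
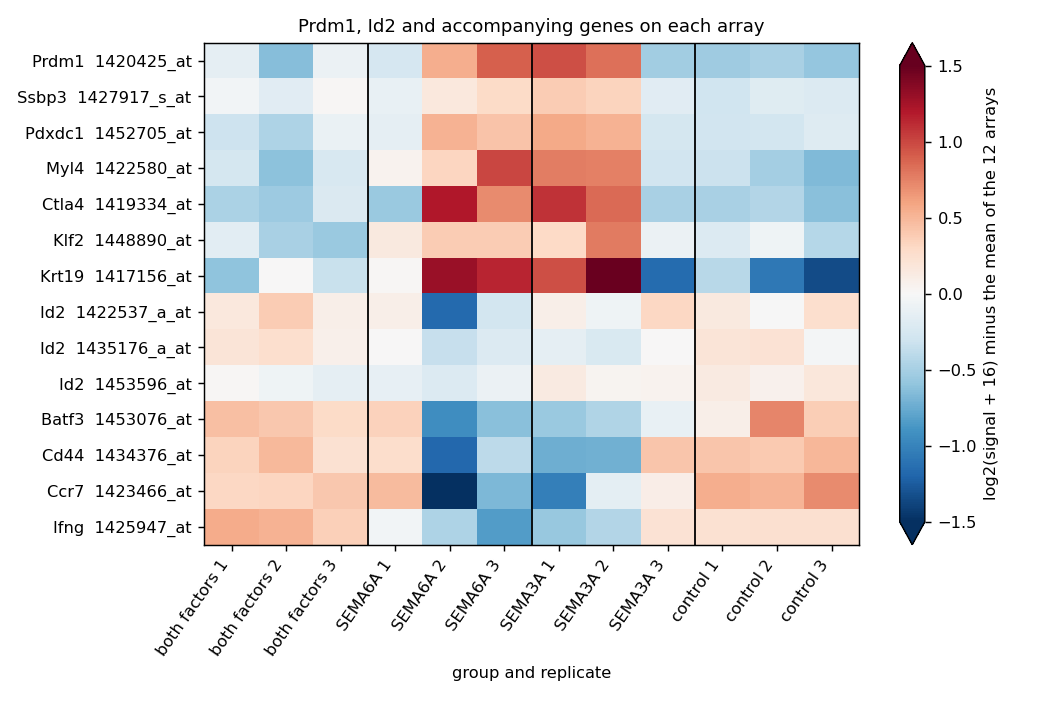
Log2(signal + 16) of the deposited signals of Prdm1, Id2 and genes named beside them on each of the 12 arrays, as the difference from the mean of all arrays (colour scale, red above and blue below). SEMA6A replicates 2 and 3 and SEMA3A replicates 1 and 2 are red for Prdm1, Ssbp3, Ctla4 and Krt19 and blue for Batf3, Cd44 and Ifng. Ssbp3, Pdxdc1 and Myl4 were picked as most like Prdm1 on these arrays, so their likeness to it is not a separate result. Bcl2, Il2rb and Perp, which did not share the pattern, are not shown. SEMA6A replicate 1 and SEMA3A replicate 3 look more like the arrays of the other groups.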

How the data were processed

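Signals of 12 arrays, 3 in each of 4 groups, were analysed. Per the submitters' processing notes the authors used MAS5, for which a version was not given in the sources used here. What they deposited is a linear intensity for each probe set, and each array's mean, trimmed of 2% at either end, was 500. After 64 control probe sets were left out, arrays were quantile normalized and put on a scale of log2(signal + 16), which understates changes of dim genes. Probe sets that exceeded the median of an array on 3 or more arrays were kept. The fit used limma 3.58.1 (R 4.3.3) with 1 mean per group over all 12 arrays and eBayes with a trend (prior degrees of freedom 5.28, residual 8), and p-values were adjusted by Benjamini-Hochberg over all 24366 at 0.05. Every probe set was tested, with the brightest standing for a gene in the lists.

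Differences are printed for member probe sets at an unadjusted p under 0.05 (or the 2 smallest p), up to 4 genes of another list by the F test, and 3 genes most like each member. Some values outside this rule, such as those beside a result, were chosen after they were seen. The members and the lists were chosen with earlier results of these data known. The test was tested on simulated data. Replicate numbers did not pair the arrays. Precision is limited by the number of arrays. The sequences came from RefSeq tables, searched with Python 3.11.15.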

Additional observations from a re-analysis of the deposited data

Results flagged for a closer look

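For 3 probe sets of 2 members, the SEMA6A difference measured with SEMA3A present was not the same as that measured without it, at an unadjusted p under 0.05 for the interaction in limma. Id2 1435176_a_at had a value of 0.62, Prdm1 had -1.64 and Id2 1422537_a_at had 0.69 on the log2 scale. None passed after adjustment over all probe sets, and 15.4% of them reached the same unadjusted threshold. For Id2 1422537_a_at the value was 0.34 without SEMA6A replicate 2. Groups of 3 arrays were not tested for outlying samples.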

How the results depend on the processing

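Of 32 log2 differences recomputed, 29 of members and 3 of Klf2, Batf3 and Zbtb7a, 681 values under the alternatives kept both their sign and their side of the threshold. As none of the 32 passed with the main settings, keeping the side meant only not passing, and changes in size were not counted. SEMA6A against control for Id2 1422537_a_at, at -0.58, thus counts as kept at -0.24 without SEMA6A replicate 2. Sign turned in 6, all near 0 and each without 1 array: Tbx21 at -0.027 for SEMA6A against control and 0.031 for both factors against SEMA6A, both without SEMA6A replicate 2, and both factors against control for Id2 1422537_a_at (-0.0023 without control replicate 2 and -0.022 without replicate 2 of both factors) and Id2 1435176_a_at (-0.081 without control replicate 3 and -0.0072 without replicate 2 of both factors). Leaving out 1 array at a time, these 4 differences ranged from -0.027 to 0.29 and from -0.29 to 0.031 for Tbx21, and from -0.022 to 0.11 and from -0.081 to 0.078 for Id2. The other 12 passed the threshold, all for the interaction: Prdm1 at -2.03 with array weights, -1.95 without SEMA6A replicate 1 and -2.10 without SEMA3A replicate 3, Id2 1435176_a_at at 0.63 with array weights and 0.71 without SEMA6A replicate 1, and Id2 1422537_a_at at 0.95 without SEMA6A replicate 1, Klf2 at -1.32, Batf3 at 1.72 and Zbtb7a at 0.81 with array weights, Klf2 at -1.27 and Batf3 at 2.01 without SEMA6A replicate 1, and Klf2 at -1.39 without SEMA3A replicate 3. The alternatives for Klf2, Batf3 and Zbtb7a, and the member counts without an array, were chosen after seeing the data. The counts of probe sets past the threshold, 0 in every comparison, changed as follows. With array weights estimated gene by gene they were 1 for SEMA6A against control, 150 for both factors against control, 783 for both factors against SEMA3A, 7 for both factors against SEMA6A, 2356 for the interaction and 200 for the F test. Both factors against control gave 1 without further normalization, 1 with 1 probe set a gene chosen by interquartile range and 52 with only the 6 arrays compared, where both factors against SEMA3A gave 40. Leaving out 1 array at a time gave 0 to 199 for SEMA6A against control (199 without SEMA6A replicate 1), 0 to 1 for SEMA3A against control, 0 to 7 for both factors against control, 0 to 2 against SEMA3A, 0 to 1 against SEMA6A, 0 for SEMA6A against SEMA3A, 0 to 1376 for the interaction (1376 without SEMA6A replicate 1, 109 without SEMA3A replicate 3) and 0 to 1 for the F test. The cause of these changes was not tested. Member probe sets were among them only for the interaction. With array weights these were Prdm1 and Id2 1435176_a_at, where 2356 of 24366 probe sets passed. Without SEMA6A replicate 1 they were 3 of 12, beside 1376 of all tested, and 12.6% and 12.7% of all were above and below 0 at an unadjusted p under 0.05. Without SEMA3A replicate 3 there was 1 of 12, beside 109 of all tested (9.84% and 9.97%). Arrays with the same replicate number did not deviate together (18 pairs, r of -0.28 to 0.08). A replicate block gave 0 in every comparison, with 3249 of 24366 probe sets at an unadjusted p under 0.05 for the interaction. With 1 probe set a gene, the probe sets not chosen have no value. Foxp3, Bcl6 and Id3 are limited by signal near or below the array median or by spread between arrays.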
